A study of Mus musculus with 2 samples.

Results

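The proteasome is the protease complex that degrades ubiquitin-tagged proteins, and its genes were examined here in the livers of wild-type (WT) and CREBH knockout (KO) mice that were fed or fasted. Members were all genes whose symbol begins with Psma, Psmb, Psmc, Psmd, Psme or Psmg followed by a digit, named through the RefSeq accession of their probe. The rule found 49 genes with a probe among the 20283 genes named on the array, and 46 of them were measured, that is well above background in all 4 channels. Of the 7 further symbols that fit the rule, 6 are pseudogenes and 1, Psme2b, is protein coding, and none of these had a probe.

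Each of 2 two-colour Agilent arrays compared pooled liver RNA of WT mice of strain C57B6J, in the Cy3 channel, with pooled liver RNA of CREBH null mice on the same strain background, in the Cy5 channel. On the fed array both pools came from mice with food ad lib, and on the fasted array both came from mice fasted for 24 h. The sources used here do not give the age, the sex, the null allele or the number of mice in a pool. CREBH, encoded by Creb3l3, is a membrane-bound transcription factor made mainly in hepatocytes and activated in fasting. There was 1 pool per group and no dye swap, so genotype and dye cannot be told apart, and the fasting comparisons run within a dye but between arrays. No replicate test exists for any value below. The median SD between the 10 spots of a repeated probe, over 213 such probes, was 0.08 for a log2 ratio and 0.09 for the difference between the fed and fasted ratios, and it covers printing and hybridisation on these arrays only. The scanner software's own error for a member's log2 ratio had a median of 0.20 on each array.

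The 26S proteasome has a barrel-shaped core, with outer rings of alpha subunits (Psma genes) and inner rings of beta subunits (Psmb genes), capped by a regulatory particle. The base of that particle holds the ATPases that unfold substrates (Psmc genes). The lid holds non-ATPase subunits encoded by some of the Psmd genes, among them the deubiquitinase Psmd14. Other Psmd genes encode base subunits or assembly chaperones. The proteolytic sites sit on the beta subunits Psmb6, Psmb7 and Psmb5. In cells exposed to interferon gamma, and constantly in many immune cells, these are replaced in new particles by Psmb9, Psmb10 and Psmb8, which gives the immunoproteasome, known for cutting peptides that suit MHC class I presentation. Psme1 and Psme2 form PA28, an interferon-inducible activator that caps the core in place of the regulatory particle. In the liver the constitutive form is usual in hepatocytes, while Kupffer cells and other immune cells carry more of the inducible form.

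After loess normalization, the fed WT pool had the highest signal of all 5 immunoproteasome and PA28 genes, an order that other centring of the arrays alters as given with the medians, and the constitutive subunits did not share this pattern. Among the 5, the gap between the fed WT pool and the next highest pool was at least 0.5 on the log2 scale for 4 genes, a gap that 0.788% of the 11292 genes measured in all channels had. Psme1 had a gap of 0.39. The other 3 pools lay within 0.23 to 0.40 of each other for each of the 5 genes, and the fasted KO pool was the lowest in all 5. How many of all genes were lowest in that pool was not counted. Of the 31 constitutive subunits, 2 were highest in the fed WT pool and 21 in the fasted KO pool. Of all measured genes, 20.6% were highest in the fed WT pool and 29.1% in the fasted KO pool.

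**Figure D1:**
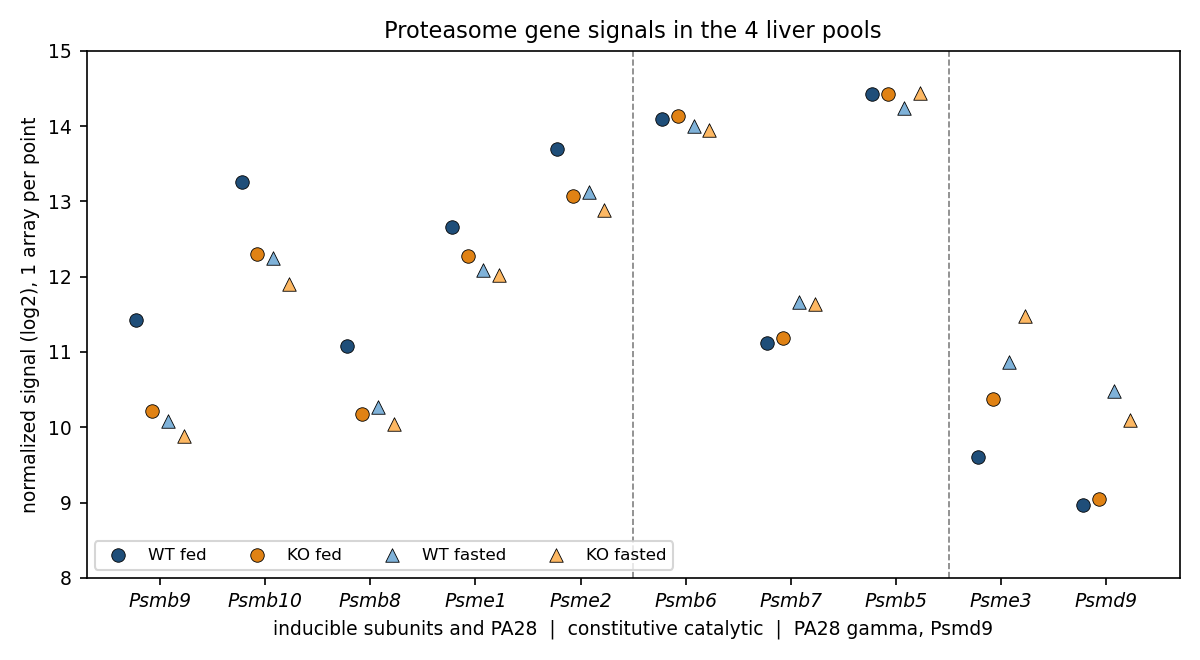
Normalized signal (log2, y axis) of 10 proteasome genes (x axis) in the 4 liver pools, with circles for fed and triangles for fasted pools, each point 1 array channel and no error bar, since no pool was repeated. After loess, the dark blue circle of the fed WT pool stands above the other points for the 5 genes on the left, by 0.39 to 1.20, and not for Psmb6, Psmb7 or Psmb5; heights of different genes are not comparable, because each probe has its own response.

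The 3 genes with the widest differences among the 5 are the catalytic subunits, and 2 of them lie side by side with the peptide transporter genes in the class II region of the MHC on chromosome 17. Psmb9 and Tap1 are transcribed away from each other from starts 225 bases apart, so a single stretch is the upstream region of both. It is shown with the 250 bases upstream of Psmb8, Psmb10 and Psme1, because these genes were lower together outside the fed WT pool, and with those of Psmb5 and Psmb6, their constitutive counterparts, for contrast. All are RefSeq sequences of build GRCm38.p6, written 5′ to 3′ on the strand of the gene, or on the plus strand for the shared stretch. They lie at chr17:34187331-34187555 (shared stretch), chr17:34197945-34198194 (Psmb8, plus strand), chr8:105938393-105938642 (Psmb10, minus), chr14:55578244-55578493 (Psme1, plus), chr14:54617996-54618245 (Psmb5, minus) and chr11:70525107-70525356 (Psmb6, plus). Capitals mark a match to 1 of the 3 motifs named after the sequences.
Psmb9 and Tap1: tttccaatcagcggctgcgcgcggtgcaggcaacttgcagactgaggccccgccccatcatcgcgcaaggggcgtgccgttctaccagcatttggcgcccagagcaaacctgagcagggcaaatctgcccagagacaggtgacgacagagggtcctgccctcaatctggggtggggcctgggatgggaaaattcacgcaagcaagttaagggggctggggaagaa
Psmb8: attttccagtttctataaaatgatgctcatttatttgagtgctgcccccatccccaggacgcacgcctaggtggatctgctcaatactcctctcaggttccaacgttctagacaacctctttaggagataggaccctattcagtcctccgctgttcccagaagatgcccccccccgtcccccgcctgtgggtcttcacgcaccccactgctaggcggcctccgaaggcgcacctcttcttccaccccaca
Psmb10: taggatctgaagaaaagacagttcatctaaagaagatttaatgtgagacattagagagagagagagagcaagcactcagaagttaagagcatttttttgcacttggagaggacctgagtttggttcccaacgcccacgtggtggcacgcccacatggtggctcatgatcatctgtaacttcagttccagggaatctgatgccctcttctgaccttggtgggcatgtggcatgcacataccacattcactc
Psme1: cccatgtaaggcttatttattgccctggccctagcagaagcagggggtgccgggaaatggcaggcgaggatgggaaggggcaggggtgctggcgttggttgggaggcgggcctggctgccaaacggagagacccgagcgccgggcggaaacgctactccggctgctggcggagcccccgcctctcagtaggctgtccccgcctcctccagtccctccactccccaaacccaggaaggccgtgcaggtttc
Psmb5: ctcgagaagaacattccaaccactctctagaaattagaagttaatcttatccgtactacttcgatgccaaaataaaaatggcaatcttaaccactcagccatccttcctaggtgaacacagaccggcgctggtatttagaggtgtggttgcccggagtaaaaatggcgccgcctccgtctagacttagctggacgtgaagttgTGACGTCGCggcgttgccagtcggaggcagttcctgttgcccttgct
Psmb6: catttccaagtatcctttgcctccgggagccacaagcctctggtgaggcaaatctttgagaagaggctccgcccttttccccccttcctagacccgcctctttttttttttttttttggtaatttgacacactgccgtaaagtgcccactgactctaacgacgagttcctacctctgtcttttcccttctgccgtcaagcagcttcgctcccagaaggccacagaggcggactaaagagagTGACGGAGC

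The motifs searched on both strands were GAAANNGAA (an interferon response form), TGACNNNGC (the core of an antioxidant response element, the kind of site that NRF2 and NRF1 use) and TGACGTCA (the cAMP response element). Among the 27025 genes with a window, 8.18% held the first, 11.5% the second and 1.77% the third. TGACGTCA and TGACNNNGC begin alike but differ later, so a stretch cannot match both from the same first letter. No pair of motifs was screened for overlap. No match to the 3 motifs was found in the windows of the 5 inducible genes. Of the 25 constitutive subunits with a window, the antioxidant response core was in Psmb5, 47 to 39 bases before the start, in Psmb6, 9 to 1 bases before it, and in Psmc6 and Psmd12. Psmb3 and Psmd4 held the interferon response form. A match describes letters only, and a window without a match says nothing about binding elsewhere.

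Psmb9, the inducible beta1 subunit, had the widest difference among the 5 inducible genes. Its log2 signal was 11.42 in fed WT, 10.22 in fed KO, 10.08 in fasted WT and 9.88 in fasted KO liver. The fed WT pool stood alone and the other pools were close to each other. The KO over WT log2 ratio was -1.20 in the fed state, a 2.30-fold lower signal, and -0.20 in the fasted state. Fasting was accompanied by a log2 ratio of -1.34 in WT and -0.34 in KO liver, and the fed and fasted genotype ratios differed by 1.003.

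Psmb10, the inducible beta2 subunit, followed the same order of pools. Its log2 signal was 13.25 in fed WT, 12.30 in fed KO, 12.25 in fasted WT and 11.90 in fasted KO liver. The genotype ratio was -0.96 fed and -0.35 fasted, and the fasting ratio was -1.01 in WT and -0.40 in KO. Psmb8, the inducible beta5 subunit, had a log2 signal of 11.08 in fed WT, 10.18 in fed KO, 10.27 in fasted WT and 10.04 in fasted KO liver. Its genotype ratio was -0.91 fed and -0.23 fasted, and its fasting ratio was -0.81 in WT and -0.13 in KO. As for Psmb9, the fed WT channel was the only one well apart from the rest for both genes, and each rests on 1 probe and 1 spot per array.

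The PA28 genes had smaller differences in the same direction. Psme1, which encodes the alpha chain, had a log2 signal of 12.67 in fed WT, 12.28 in fed KO, 12.09 in fasted WT and 12.02 in fasted KO liver. It is the only member on a probe printed 10 times, and its fed KO over WT ratio was -0.39 ± 0.07 (SD between 10 spots of 1 array, not between mice). Its fasted genotype ratio was -0.07 ± 0.05 by the same measure, and its fasting ratio was -0.58 ± 0.07 in WT and -0.26 ± 0.05 in KO. After loess, Psme1 thus differed by several spot SDs between fed WT and both fed KO and fasted WT. The spot SD does not cover the centring of the arrays. With centring on all gene spots the fed genotype ratio of Psme1 was 0.73. Without normalization between arrays its WT fasting ratio was 0.03. Psme2, the beta chain, had a log2 signal of 13.70 in fed WT, 13.07 in fed KO, 13.12 in fasted WT and 12.88 in fasted KO liver. Its genotype ratio was -0.63 fed and -0.24 fasted, and its second probe gave -0.33 and -0.09. The probes of Psme2 thus had the same direction and differed by 0.30 in the fed comparison, the widest disagreement between probes among the 11 members with several probes there.

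The constitutive catalytic subunits gave the reference for these values. Psmb6, which carries the beta1 site, had a log2 signal of 14.10 in fed WT, 14.13 in fed KO, 14.00 in fasted WT and 13.94 in fasted KO liver. Psmb5, which carries the beta5 site and is the main target of proteasome inhibitors, had 14.42, 14.43, 14.24 and 14.44 in the same order. Its second probe gave genotype ratios of -0.10 fed and -0.04 fasted, against 0.01 and 0.20. Psmb7, which carries the beta2 site, had 11.12, 11.19, 11.66 and 11.64. The genotype ratios of the 3 genes were between 0.01 and 0.07 in the fed state and between -0.06 and 0.20 in the fasted state. Psmb7 was the only one of the 3 to differ by 0.5 with fasting, with ratios of 0.54 in WT and 0.45 in KO.

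Set against its own constitutive counterpart within the same channels, each inducible subunit was relatively lower in fed KO than in fed WT liver. The Psmb9 ratio less the Psmb6 ratio was -1.23 fed and -0.14 fasted. For Psmb10 less Psmb7 it was -1.02 fed and -0.33 fasted, and for Psmb8 less Psmb5 it was -0.92 fed and -0.43 fasted. With fasting of WT mice these differences were -1.24, -1.54 and -0.63, and with fasting of KO mice -0.15, -0.85 and -0.14. The wide fasting value of the Psmb10 pair in both genotypes holds the higher fasted signal of Psmb7 as well as the lower signal of Psmb10. A shift common to both probes of a pair cancels in these values, but a shift that varies with signal does not. With either centring in place of loess, the fasted genotype values were -0.40 for Psmb9 less Psmb6, -0.30 for Psmb10 less Psmb7 and -0.70 for Psmb8 less Psmb5, and the fed values were -1.46, -0.91 and -1.17.

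Across the genes, the median KO over WT log2 ratio in the fed state was -0.91 for the 5 inducible genes and 0.01 for the 31 constitutive subunits, against 0.01 for all 11378 genes measured. All 5 inducible genes lay below the lowest constitutive subunit, whose ratios ran from -0.21 to 0.25. A ratio of -0.5 or below was seen for 4 of the 5 inducible genes and for none of the 31 others, beside 1.85% of all genes measured. Psmb9 was the only one of the 46 members at least 2-fold apart, beside 0.554% of all genes. The absolute direction depends on the normalization: when the median log ratio over all gene spots was set to 0 in place of loess, the median of all genes moved to 0.78, the inducible median to 0.18 and the constitutive median to 1.08. Psmb9 was then still lower in the fed KO channel, at -0.19, while Psmb8, Psmb10, Psme2 and Psme1 had ratios of 0.09, 0.18, 0.56 and 0.73. With centring on the measured probes 4 of the 5 were below 0, from -0.90 for Psmb9 to -0.15 for Psme2, and Psme1 was at 0.02. The inducible median less the constitutive median was -0.92, and it ran from -0.96 to -0.90 over 8 other ways of processing.

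In the fasted state the inducible median was -0.23 and the constitutive median 0.11, against 0.01 for all genes, a difference between the lists of -0.34. No member was 2-fold apart, beside 0.791% of all genes, and 4 of the 5 inducible genes lay below all 31 constitutive subunits. The sign of each list again depends on the normalization, since with centring on the measured probes the inducible median was 0.01 and the constitutive median 0.50. The difference between the lists stayed between -0.49 and -0.30 over 8 alternatives. Of the 31 constitutive subunits, 23 had a ratio above 0, beside 52.7% of all genes measured.

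**Figure D2:**
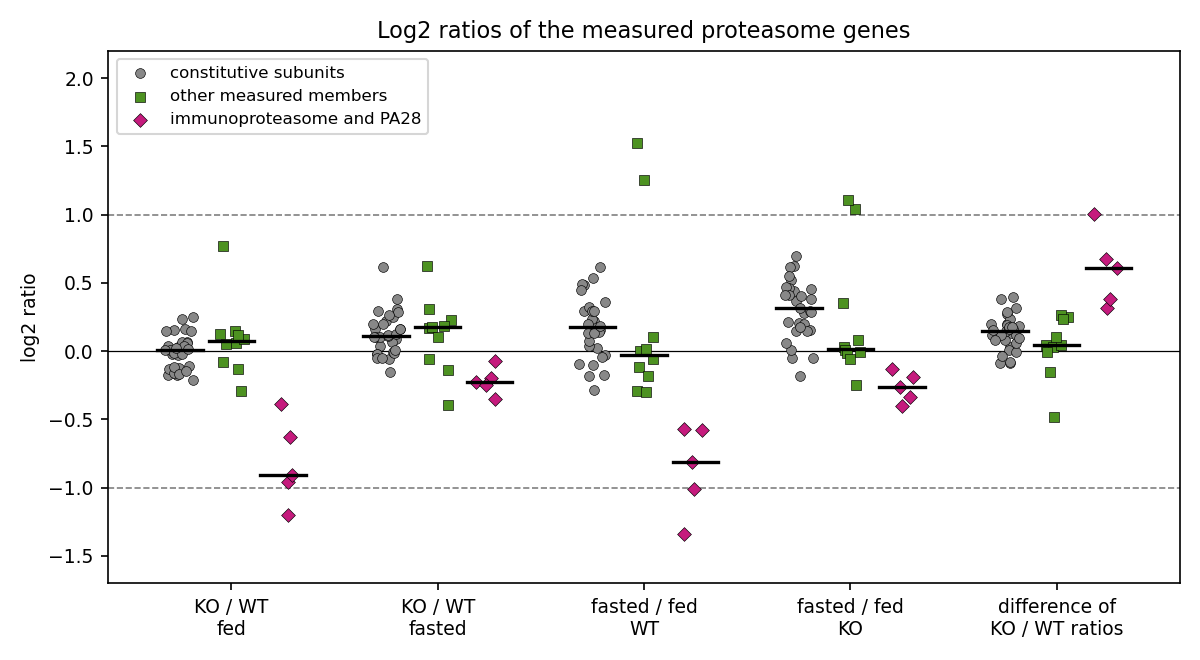
Log2 ratio (y axis) of each of the 46 measured members in the 5 comparisons (x axis), with grey circles for constitutive subunits, green squares for other members and pink diamonds for the immunoproteasome and PA28 genes; black bars are medians and dashed lines mark 2-fold. The diamonds lie below all circles in the fed genotype comparison and in fasting of WT mice, with medians of -0.91 and -0.81, and nearer to the circles in the fasted genotype comparison and in fasting of KO mice, with medians of -0.23 and -0.26.

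The fasting comparison in WT liver gave the inducible genes a median of -0.81 and the constitutive subunits a median of 0.18. All 5 inducible genes were at -0.5 or below, beside 7.65% of all genes, and Psmb9 and Psmb10 were at least 2-fold lower. Of the 46 members 4 were at least 2-fold apart, beside 4.28% of all genes. The other 2 were Psmd9 and Psme3, both higher. In KO liver the inducible median was -0.26 and the constitutive median 0.31. None of the 5 inducible genes was at -0.5 or below, and 2 of the 46 members were 2-fold apart, again Psme3 and Psmd9, beside 4.68% of all genes. Without normalization between arrays, the median of all genes moved to 0.46 in WT and 0.45 in KO, and the inducible medians were then -0.26 and 0.34, while the difference between the lists ran from -1.05 to -0.97 in WT and from -0.64 to -0.56 in KO over the alternatives.

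The difference between the fasted and the fed genotype ratios had a median of 0.61 in the inducible genes and 0.14 in the constitutive subunits, against -0.01 in all genes. It was at least 0.5 for Psmb9, Psmb8 and Psmb10, beside 3.15% of all genes, and these 3 lay above all 31 constitutive subunits. Psmb9 alone was at least 2-fold apart, beside 1.37% of all genes, and at 1.003 it stood at the limit: with centring on measured probes it was 0.91, and with centring on all gene spots 0.70. The fed WT channel enters the fed genotype ratio, the WT fasting ratio and this difference, so a high value of that channel alone appears in all of them, and the 3 values are not independent of each other.

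After loess, the alpha ring genes shared a small shift in the fasted KO pool. All 7 had a fasted genotype ratio above 0, from 0.07 to 0.62 with a median of 0.16, beside 52.7% of all genes above 0. All 7 were higher in fasted than in fed KO liver, by 0.21 to 0.62, beside 51.7% of all genes. In the fed state 2 of the 7 were above 0, beside 53.1% of all genes, and the median was -0.03. Psma4 had a log2 signal of 11.11 in fed WT, 11.34 in fed KO, 11.01 in fasted WT and 11.62 in fasted KO liver. Its fasted genotype ratio of 0.62 was the highest among the constitutive subunits, and its other probe gave 0.36. Psma5 had 11.76, 11.58, 11.98 and 12.20 in the same order, and its genotype ratio was -0.17 fed and 0.22 fasted. With centring on measured probes the alpha ring median was 0.35 fed and 0.56 fasted. The 2 Psma5 ratios were then 0.18 and 0.56, so the sign of the fed values rests on the normalization. With centring on all gene spots the alpha ring median was 1.06 in both states, beside 0.78 fed and 0.57 fasted for all genes. The median difference between the states was then -0.04, with 3 of 7 above 0, beside a median of -0.17 for all genes.

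The non-catalytic beta subunits were similar. Psmb2 had a log2 signal of 8.57 in fed WT, 8.64 in fed KO, 8.80 in fasted WT and 9.18 in fasted KO liver, with a fasted genotype ratio of 0.38. Psmb3 had 14.06, 13.93, 13.77 and 13.88, and its WT fasting ratio of -0.29 was the lowest among the constitutive subunits. Psmb1 and Psmb4 were higher after fasting, with ratios of 0.49 and 0.15 in WT and 0.52 and 0.44 in KO. Psmb3 was thus the only non-catalytic beta gene not above its fed signal in either genotype.

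Of the regulatory particle, the base genes had small median ratios after loess. The 6 ATPases Psmc1 to Psmc6 with Psmd1, Psmd2 and Psmd4 had a median genotype ratio of 0.04 fed and 0.12 fasted, and a median fasting ratio of 0.14 in WT and 0.18 in KO. With centring on measured probes the genotype medians were 0.40 fed and 0.49 fasted, and with centring on all gene spots 1.11 and 0.98. All 9 genes were above 0 in each. With centring on all gene spots the median of all genes itself moved to 0.78 fed and 0.57 fasted. The base median lay 0.34 fed and 0.41 fasted above that of all genes with either centring, against 0.02 and 0.11 after loess. Psmc2 had a log2 signal of 12.41 in fed WT, 12.66 in fed KO, 12.55 in fasted WT and 12.80 in fasted KO liver, a genotype ratio of 0.25 in both states. The second Psmc2 probe gave 0.10 fed and 0.16 fasted. Psmc5 had 11.05, 11.21, 10.87 and 11.16, and with -0.05 it was the only base gene below 0 in KO fasting. Psmc1 had 13.70, 13.76, 13.99 and 13.97. After loess the genotype ratios of the 9 base genes ran from -0.16 to 0.25 fed and from -0.02 to 0.30 fasted, beside a scanner error of 0.20 per ratio. Their fasting ratios ran from -0.17 to 0.32 in WT and from -0.05 to 0.47 in KO. That error does not cover the fasting ratios, which run between arrays.

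The lid genes had higher signals after fasting in both genotypes. Of 8 lid genes, 7 had a fasting ratio above 0 in WT and 8 in KO, with medians of 0.29 and 0.41 (0.28 and 0.40 with centring on measured probes), beside 51.4% and 51.7% of all genes measured. Without normalization between arrays the lid medians were 0.88 and 0.99, where all genes had medians of 0.46 and 0.45. Psmd8 had a log2 signal of 11.18 in fed WT, 11.20 in fed KO, 11.80 in fasted WT and 11.90 in fasted KO liver, and its fasting ratios of 0.62 and 0.70 were the highest among the constitutive subunits. Psmd13 had 10.94, 10.82, 11.38 and 11.23, and Psmd11 had 10.79, 10.57, 10.92 and 10.87. Both fasted pools were above both fed pools for Psmd8, Psmd13 and Psmd11. Over all constitutive subunits 24 of 31 were above 0 in WT fasting and 28 of 31 in KO fasting, 5 of the 31 were at 0.5 or above in KO fasting, beside 9.48% of all genes, and none was 2-fold apart. In the difference between the genotype ratios 26 of 31 were above 0, beside 48.8% of all genes. This count rests on the normalization. With centring on all gene spots, 3 of 7 alpha ring, 2 of 4 non-catalytic beta and 0 of 3 catalytic genes were above 0. Of the 9 base and 8 lid genes none was above 0, and the median of all genes was then -0.17.

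Psme3 encodes PA28 gamma, the nuclear relative of PA28 that is not part of the interferon response and drives ubiquitin-independent degradation. Its log2 signal was 9.60 in fed WT, 10.38 in fed KO, 10.86 in fasted WT and 11.48 in fasted KO liver. After loess, each step was in the opposite direction to Psme1 and Psme2. With centring on all gene spots the fed genotype ratios of Psme1 and Psme2 were 0.73 and 0.56, so the opposite direction rests on the normalization. The genotype ratio of Psme3 was 0.77 fed and 0.62 fasted, and its fasting ratio was 1.26 in WT and 1.11 in KO. The pools did not overlap by feeding state, and within each state the KO pool was higher. Psme3 was the member with the highest genotype ratio in the fed state, on 1 probe with 1 spot per array. In the fasted state Psme3 and Psma4 both had 0.62, the highest of the members. Psme4, which encodes the activator PA200, had 8.73, 8.79, 8.44 and 8.54 in the same order of pools. Its fasting ratio was -0.30 in WT and -0.25 in KO, and its second probe gave -0.14 and -0.50.

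Psmd9, a chaperone of base assembly, had the highest fasting ratio of any member. Its log2 signal was 8.96 in fed WT, 9.05 in fed KO, 10.48 in fasted WT and 10.09 in fasted KO liver, a ratio of 1.52 in WT and 1.04 in KO. The second probe gave 1.11 and 0.67, so the KO value was past 2-fold on 1 of the 2 probes. In the fasted state its genotype ratio was -0.39, the lowest of the members, and -0.48 on the second probe. Its upstream window held both an interferon response form, 159 to 151 bases before the start, and an antioxidant response core, 31 to 23 bases before it.

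The other assembly chaperones did not share the fasting pattern of Psmd9. The 7 genes Psmd5, Psmd9, Psmd10 and Psmg1 to Psmg4 had a median fasting ratio of -0.06 in WT and 0.01 in KO. Psmg4 had a log2 signal of 8.71 in fed WT, 8.42 in fed KO, 8.42 in fasted WT and 8.36 in fasted KO liver. Its fed WT pool was the highest, with a fed genotype ratio of -0.29. Psmg1 had 11.80, 11.67, 11.82 and 11.68, lower in KO by 0.13 and 0.14, within the scanner error. Its second probe gave genotype ratios of -0.02 fed and 0.02 fasted. Psme3ip1, which binds PA28 gamma and shares the prefix only, had a genotype ratio of 0.15 fed and 0.18 fasted. The testis subunit Psma8, the thymus subunit Psmb11 and the meiotic factor Psmc3ip were not well above background in any of the 4 channels.

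**Figure D3:**
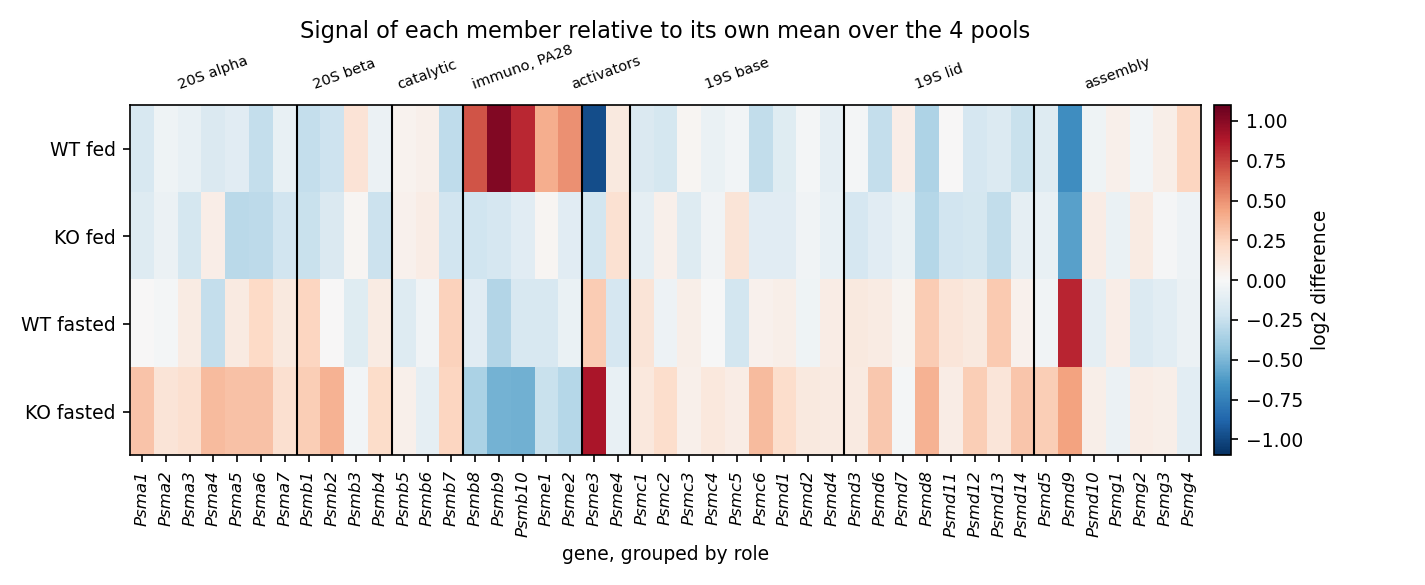
Log2 signal of each measured subunit, activator and assembly gene (columns, by role; Psme3ip1 is not drawn) in the 4 pools (rows), less the mean of that gene over the pools; red is above and blue below its mean. The red block of the fed WT pool covers the 5 immunoproteasome and PA28 genes, and Psme3 is lowest in the fed WT pool and highest in the fasted KO pool. In the bottom row, the fasted KO pool, 21 of 31 constitutive subunits are highest, beside 29.1% of all measured genes.

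Genes that act with the proteasome but lie outside the naming rule were listed in the same way, 23 genes with 22 on a probe. Among them were the subunit Sem1, the maturation factor Pomp, the inhibitor Psmf1, deubiquitinases, shuttle factors, the transcription factor Nfe2l1 with its processing enzymes, and Ubb. None was 2-fold apart in any comparison, and the medians ran from -0.03 to 0.06 (0.35 in the fed genotype comparison with centring on measured probes). Ubb, a polyubiquitin gene, had fasting ratios of 0.44 in WT and 0.45 in KO.

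Among these partner genes, high fed genotype ratios were those of the proteasome deubiquitinase Uchl5, at 0.38, and the shuttle factor Ubqln1, at 0.26. The lowest were -0.16 for the deglycosylase Ngly1 and -0.16 for Sem1. In the fasted state Ubqln2 had 0.35, Psmf1 -0.33 and Sem1 -0.24. Ecpas, a proteasome adaptor and scaffold, was lower after fasting in both genotypes, with -0.47 in WT and -0.59 in KO. Nfe2l1, the factor that raises proteasome subunit transcription when proteasome activity is short, had genotype ratios of -0.11 and -0.20 and fasting ratios of 0.08 and -0.01. Ddi2, the protease that releases it, had the lowest difference between the genotype ratios of the list, -0.42.

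The genes of MHC class I loading and interferon signalling were lower in fed KO liver together with the immunoproteasome. Of 16 listed genes 15 were measured in that comparison, 13 of them below 0, beside 46.9% of all genes, with a median of -0.43. Of the 15, 4 were at -0.5 or below, beside 1.85% of all genes. None was 2-fold apart. The median of this list was -0.07 with centring on measured probes and 0.64 with centring on all gene spots, and its distance from the median of all genes was -0.14 in both, against -0.44 after loess. The same distance for the 5 inducible proteasome genes was -0.59 with either centring, against -0.92 after loess, and in the fasted state -0.06 against -0.24. Irf1, the interferon-induced transcription factor that acts on the Psmb9 and Tap1 promoter, had a log2 signal of 10.95 in fed WT, 10.24 in fed KO, 10.19 in fasted WT and 10.28 in fasted KO liver. Its fed WT pool stood above the other 3, as for the inducible subunits, with a genotype ratio of -0.71 fed and 0.09 fasted and a fasting ratio of -0.76 in WT and 0.04 in KO. Nlrc5, the class I transactivator, had a genotype ratio of -0.66 fed and -0.28 fasted, and its WT fasting ratio was -0.09.

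The class I genes differed among themselves after fasting. Tap1, which shares its upstream stretch with Psmb9, had a genotype ratio of -0.55 fed and -0.17 fasted, and a fasting ratio of -0.12 in WT where Psmb9 had -1.34. Tap2, the second transporter chain, had -0.43 fed and -0.41 fasted. Tapbp, which bridges the transporter to class I molecules, had -0.44 fed and -0.03 fasted and a WT fasting ratio of -0.76. H2-K1, a class I heavy chain whose probe may also detect related class I genes, had -0.59 fed and -0.42 fasted. Over the list the median WT fasting ratio was -0.12, against -0.81 in the inducible proteasome genes. The receptor chain Ifngr2 was higher after fasting, with 0.68 in WT and 0.93 in KO.

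The genes next to the inducible subunits differed from them in part of the comparisons. On chromosome 17 the order is H2-DMb1, Psmb9, Tap1, Psmb8, Tap2, H2-Ob and H2-Ab1, and H2-DMb1 and H2-Ab1 encode MHC class II proteins. Their fed genotype ratios were -1.16 and -1.48, and their fasted ratios 0.44 and 0.62, where Psmb9 and Psmb8 had -0.20 and -0.23. Fasting of KO mice gave 0.61 and 0.66 for them, and -0.34 and -0.13 for Psmb9 and Psmb8. On chromosome 8, the neighbours of Psmb10 had fed genotype ratios of -0.04 (Ctrl) and 0.04 (Lcat), where Psmb10 had -0.96. On chromosome 14 the measured neighbours of Psme1 and Psme2 were also below 0 in the fed genotype comparison after loess, beside 46.9% of all genes. The ratios were -0.71 for Fitm1, -0.43 for Emc9, which lies between the pair, -0.50 for Rnf31, -0.32 for Irf9 and -0.69 for Rec8. Dcaf11 had -0.15, smaller than the members' scanner error of 0.20. With centring on all gene spots the median of all genes was 0.78, and these neighbours were not read under that setting. In WT fasting these ran from -1.18 (Rec8) to 0.56 (Fitm1).

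RNA of whole liver cannot tell fewer cells of a type from less RNA per cell, so markers of the cell types were read in the same channels. Of 12 listed Kupffer cell and macrophage markers 11 had a probe and 10 were measured in all 4 channels, and 1 was above background in none. Their summed normalized signal, which here and below includes probes not above background, was 18635 in fed WT, 13735 in fed KO, 18580 in fasted WT and 19421 in fasted KO liver. All 10 were lower in fed KO than in fed WT liver, beside 46.9% of all genes, with a median log2 ratio of -0.36. The part of this in the fed ratio of the inducible genes was not tested. With centring on all gene spots their median was 0.50, below the 0.78 of all genes. The marker not above background was Cd163. In WT fasting the median of the 10 was 0.10, with 6 above 0, beside 51.4% of all genes. Single markers ran from -1.02 (Marco) to 0.41 (C1qb). Marco, a scavenger receptor gene, also had the lowest fed genotype ratio of the list, -0.91. The lymphocyte markers, with 7 of 16 above background in all channels and 7 in none, summed to 5320, 4716, 6478 and 4887 in the same order of pools. Cd4 had by far the highest log2 signal of these markers, 11.67, 11.40, 12.17 and 11.54 in that order, so the sums rest largely on it. Its WT fasting ratio was 0.50, while the median of the 8 measured there was -0.02. Among those not detected were Cd8a, Gzmb, Klrb1c, Ncr1, Cd79a and Ms4a1. The neutrophil markers, with 3 of 6 above background in all channels and Ngp and Mpo in none, summed to 1029, 811, 847 and 905. The 7 sinusoidal endothelium markers, all above background in every channel, summed to 8638, 8452, 10758 and 11241. All 7 were below 0 in the fed genotype comparison, from -0.25 to -0.005 with a median of -0.07, beside 46.9% of all genes. With centring on measured probes 3 of 7 were above 0. The median fasting ratio of the 7 was 0.33 in WT and 0.65 in KO. The part of any of these cell types in the proteasome values was not tested. All 7 hepatocyte markers were above background in every channel and summed to between 611490 and 661253.

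The targeted gene served as a check of the dye labels. Creb3l3 had a log2 signal of 14.00 in fed WT, 13.12 in fed KO, 15.03 in fasted WT and 12.95 in fasted KO liver, lower in the KO channel of both arrays. In the fed comparison its ratio was -0.88, or 0.31 with centring on all gene spots, where all genes had a median of 0.78; in the fasted comparison it was -2.07, or -1.11. No source used here says where its probe lies relative to the deleted part. Well above background were 39.9% to 45.9% of the gene spots per channel, and no gene spot was saturated.

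The median genotype ratios of both lists moved with the centring of the arrays.

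**Figure D4:**
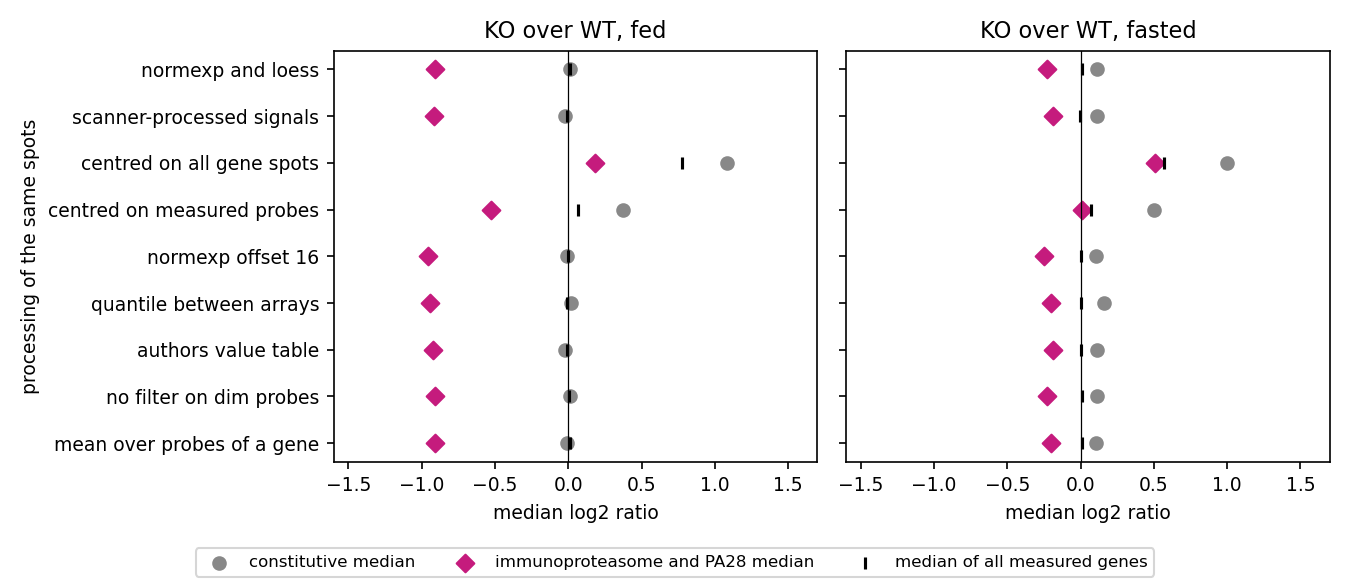
Median log2 ratio of KO over WT (x axis) of the 31 constitutive subunits (grey), the 5 immunoproteasome and PA28 genes (pink) and all measured genes (black tick) under 9 ways of processing the same spots (y axis), fed on the left and fasted on the right. Centring on all gene spots moves the fed constitutive median to 1.08 and the inducible median to 0.18, and the gap between the medians in the fed panel stays between -0.96 and -0.90.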

How the data were processed

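The data were 2 two-colour Agilent arrays read with Feature Extraction 10.10.1.1, per the file headers, on 1 slide in 1 scan. The authors deposited spot and background intensity values per channel, not normalized, together with processed intensity values that were background-subtracted and dye-normalized per the file headers. Each spot also has a deposited log10 ratio, Cy5 over Cy3, and an error, both from the scanner software. The deposited table of log2 ratio values matched it to within 0.005 and had column medians of 0; whether it was centred further stays unknown.

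Median signals were corrected with normexp (offset 50), normalized by loess within arrays with control spots at weight 0, and by Aquantile between arrays, in limma 3.58.1 under R 4.3.3. Control spots (3671 per array) and outlier spots (216 fed, 197 fasted) were left out. An added offset compresses ratios at low signal by construction. Of 55681 probes 26762 were named through RefSeq accessions and the GRCm38.p6 gene table; the array grid is of an older build, so only promoter windows carry coordinates. The probe of highest mean intensity stood for a gene, and a gene was measured where at least 50% of its spots were well above background in each channel compared. The number of arrays limits the precision.

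Each group being a single pool, nothing was tested; 2-fold and 0.5 on the log2 scale were rules of size. Members and lists were chosen with earlier results of these data known. Given in all 4 channels are the 5 inducible genes, Psmb5, Psmb6, Psmb7 and the 3 highest and 3 lowest other members of each comparison; from the partner and class I lists, the 2 highest and 2 lowest were picked per comparison. Some items that fall under these rules are not reported here. Alternatives covered centring, background offset, scaling between arrays, the scanner's processed signals, the authors' table, the filter and the choice of probe.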

Additional observations from a re-analysis of the deposited data

Results flagged for a closer look

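Psma5, an alpha ring subunit, had KO over WT log2 ratios in opposite directions in the fed and the fasted pools, -0.1737 fed and 0.2227 fasted. Each was larger than 2 SDs between the spots of repeated probes, 0.169 and 0.153, and close to the scanner error of 0.20. With centring on measured probes they were 0.18 and 0.56, no longer in opposite directions. The difference between the states was not tested.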

How the results depend on the processing

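The inducible median less the constitutive median had the same sign under all alternatives that gave a value in each comparison. In the fasted genotype comparison it was -0.49 with either centring in place of loess, against -0.34. Centring on all gene spots moved the constitutive median to 1.08 (fed genotype ratio), 0.999 (fasted), 0.30 (WT fasting), 0.19 (KO fasting) and -0.087 (difference of ratios), and the number of members at least 2-fold apart to 26, 16, 1 (KO fasting) and 0 (difference). Centring on measured probes moved the constitutive median to 0.37 fed and 0.50 fasted and left 0 members 2-fold apart in the difference. Without normalization between arrays the constitutive median was 0.78 in WT and 0.92 in KO fasting, with 7 and 14 members 2-fold apart. The fed count was 2 with the scanner's processed signals and in the authors' table, and the KO fasting count 1 with the mean over probes. The number of inducible genes below all constitutive subunits was 5 in the fed genotype comparison and in WT fasting under every alternative, and 3 to 5 in the other 2 comparisons. No paired analysis was possible because each group has 1 pool, and for the same reason no replicate could be left out. Members other than Psme1 rest on probes with 1 spot, so differences near 0.20 are within the scanner error.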
